A study of Mus musculus with 10 samples.

Results

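The 7 intermediate filament genes of glia and neurons described here were Gfap, Vim and Nes, taken as glial, and Nefl, Nefm, Nefh and Ina, taken as neuronal. They were found by matching the Ensembl identifiers of the count table, version removed, to mouse symbols, and all 7 were among its 14276 genes. The counts came from ribosomal RNA-depleted total RNA of frozen cerebral cortex of C57BL/6 mice aged 3 months, sequenced in 5 control and 5 BrapcKO libraries. Control 08, 22 and 23 were flox/wt Cre- and control 09 and 24 flox/flox Cre-, whereas BrapcKO 04, 07 and 21 were flox/ko Cre+ and BrapcKO 05 and 06 flox/flox Cre+. Here flox is a Brap allele that Cre recombinase can cut out, ko stands for the knockout allele and wt for wild type. Brap encodes a ubiquitin ligase that restrains Ras to MAP kinase signalling. Neither the promoter driving Cre nor the part of Brap removed is given in the labels, and since all BrapcKO libraries and no control library were Cre+, loss of Brap and presence of Cre cannot be told apart. The question was how the cortical transcriptome of such knockouts compares with that of wildtype-like littermates.

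Intermediate filaments are ropes of coiled-coil proteins that give cells mechanical strength. Astrocytes build theirs from the glial fibrillary acidic protein GFAP together with vimentin, and raise them when they become reactive to injury or disease. Vimentin is also made by blood vessel cells, microglia and fibroblasts, and nestin by neural progenitors and vessel cells. Neurons build neurofilaments from a light, a medium and a heavy chain (Nefl, Nefm, Nefh) with alpha-internexin (Ina), and these set the calibre of axons.

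Total counts ran from 17188901 to 28991874 per library. Sample titles are marked B1 or B2, a title code that the labels do not explain. B1 held control 08 and 09 and BrapcKO 04, 05, 06 and 07, and B2 held control 22, 23 and 24 and BrapcKO 21. The code was therefore a term in every test unless stated otherwise. Levels are given as CPM, read counts relative to a library total corrected by TMM for differences in composition. The Y-linked gene Ddx3y reached 115 to 148 CPM in 1 control (23) and 4 BrapcKO libraries (05, 06, 07 and 21), with 0.0519 CPM or less elsewhere, so Y-linked reads were uneven between the groups. Values with a Y-linked score (the mean log2 CPM of Ddx3y, Uty, Kdm5d and Eif2s3y) as a further term are given for each member and for the gene lists. Transcripts of Brap were at 76.7 to 98.6 CPM in control and at 89 to 110.5 CPM in BrapcKO, no lower, so they do not check the labels. The labels do not say that each library came from a separate mouse, so the tests rest on the spread among libraries, which may be technical. Neuronal markers were abundant in all libraries, with Slc17a7, the vesicular glutamate transporter of cortical excitatory neurons, at 807 to 1302 CPM.

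Of the 7 genes 4 differed between the groups by the quasi-likelihood test of edgeR at an adjusted p under 0.05. Gfap and Vim rose in the libraries labelled BrapcKO, and Nefl and Nefm fell. Nes, Nefh and Ina did not pass the test. Of all 14276 genes 8.07% were called, 3.12% as higher and 4.95% as lower, against 2 of 3 glial genes higher and 2 of 4 neuronal genes lower. With group as the only term the same 4 members were called, against 4.32% of all genes (1.83% higher, 2.49% lower). Adding the Y-linked score to the title code left Vim, Nefl and Nefm called, against 2.24% (0.644% higher, 1.6% lower). With the Y-linked score in place of the title code Vim and Nefl were called, against 0.658% (0.21% higher, 0.448% lower). The median log2 difference was 1.81 over the glial genes, -0.33 over the neuronal genes and 0.0083 over all genes. A smaller number of cells of a type and less RNA per cell cannot be told apart in such tissue. The summed level of 15 microglial markers was also higher in BrapcKO, as given below. Of the 15 markers 3 were called, and 0 when the Y-linked score was added.

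**Figure D1:**
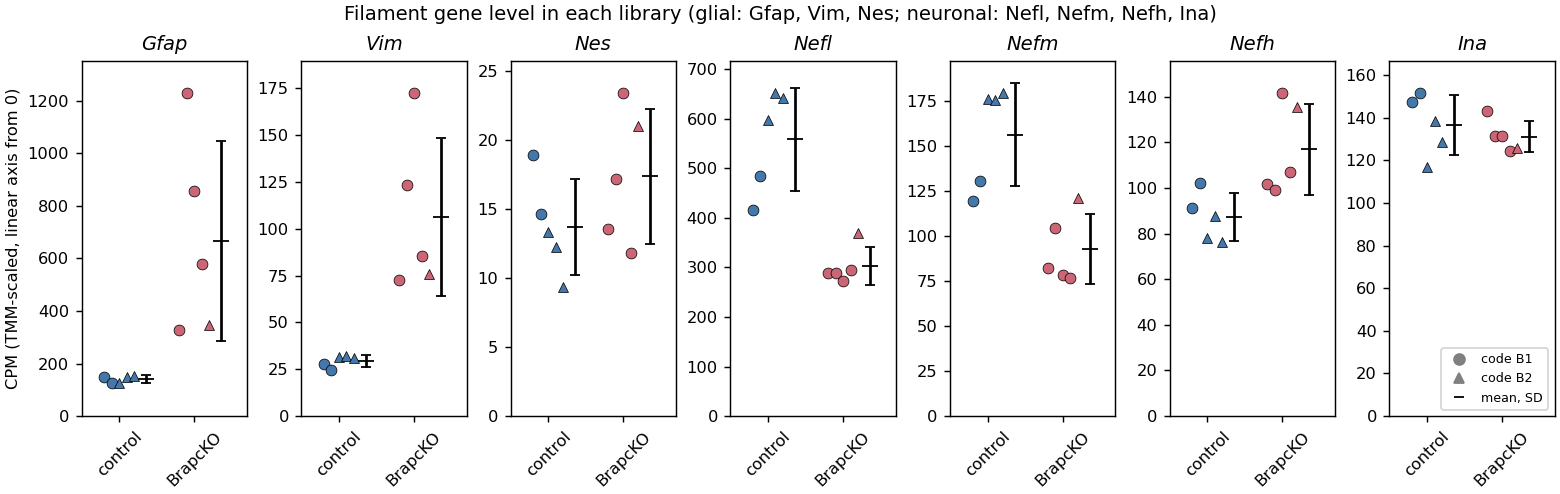
Level of each filament gene in each library, in TMM-scaled CPM on linear axes from 0, by group; circles are code B1, triangles code B2, and the black bar is the mean ± SD of 5 libraries. All 5 BrapcKO libraries lie above all controls for Gfap and Vim and below all controls for Nefl, while the groups overlap for Nes, Nefm, Nefh and Ina.

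Sequences at the promoter of Gfap, the gene that rose most among the 7, and of Nes, a glial filament gene that did not pass the test, are shown for comparison. They are from RefSeq on GRCm38.p6, and begin 250 bases before the annotated start of transcription. The Gfap stretch is chr11:102897194-102897450, minus strand, and the Nes stretch chr3:87970843-87971077, plus strand, where it stops short of the first annotated exon. Capitals mark matches to the motifs searched.
Gfap: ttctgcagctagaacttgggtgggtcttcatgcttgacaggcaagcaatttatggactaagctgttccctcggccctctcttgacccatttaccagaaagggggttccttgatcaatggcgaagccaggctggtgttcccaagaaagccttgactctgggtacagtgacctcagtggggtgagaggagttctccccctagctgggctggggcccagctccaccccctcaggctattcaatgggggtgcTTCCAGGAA
Nes: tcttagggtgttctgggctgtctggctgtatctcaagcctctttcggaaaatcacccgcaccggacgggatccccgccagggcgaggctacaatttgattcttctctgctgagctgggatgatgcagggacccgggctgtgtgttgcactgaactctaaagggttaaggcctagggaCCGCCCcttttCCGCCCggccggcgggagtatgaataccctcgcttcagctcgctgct

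The 300-base windows (250 before and 50 after the start) of Gfap, Vim, Nes and Ina, the 4 members matched in the RefSeq table, were searched on both strands for 5 motifs. They were the STAT motif TTCNNNGAA, the AP-1 motif TGANTCA, the TATA box TATAAA, the CCAAT box and the GC box GGGCGG. The Gfap window held 1 STAT match, from base -2 to base 7, across the start of transcription, and none of the other 4 motifs. A STAT match occurred in 8.3% of the 32851 promoters of that table. The Vim window held a TATA box at -32 to -27 and 2 CCAAT matches, motifs found in 13.6% and 37.4% of promoters. The Nes and Ina windows held 2 GC boxes each, a motif of 35.7% of promoters, and no STAT match. In GENCODE M21 all 250 bases before the Vim start lie in an exon of a longer Vim transcript, so they are not printed.

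The 7 genes are relatives, and reads could in principle be shared among them. Over all 21 pairs of members, the longest identical run between protein-coding transcripts was 12 to 23 bases.

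Overlap on the genome affected the neurofilament genes more. Nefl (ENSMUSG00000022055.7, GRCm38 chromosome 14, 68083863 to 68089095, plus strand) lies within the span of Nefm (ENSMUSG00000022054.11, 68082590 to 68124846, minus strand). The last exon of the longer Nefm transcript covers 1108 bases of Nefl exons, 32.8% of the exonic length of Nefl and 19.2% of that of Nefm. Ina (ENSMUSG00000034336.3, chromosome 19, 47014698 to 47025327, plus strand) shares 456 exonic bases, 14.1% of its length, with Nt5c2 on the other strand. The strand setting of the counting was not stated, so reads of these stretches cannot be told apart. Gfap, Vim, Nes and Nefh share no exonic base with another annotated gene.

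Gfap (ENSMUSG00000020932.14, chromosome 11, 102887336 to 102900912, minus strand) encodes the main filament protein of astrocytes. Libraries are listed throughout as control 08, 09, 22, 23 and 24 and BrapcKO 04, 05, 06, 07 and 21, in that order. Gfap levels were 147, 125, 125, 151 and 154 CPM in the controls. They were 329, 1228, 855, 577 and 345 CPM in the BrapcKO libraries. The groups did not overlap, which held for 6.82% of all genes (3.12% with BrapcKO above), and the BrapcKO libraries spread widely, with the flox/flox Cre+ libraries 05 and 06 the highest. Controls averaged 140 ± 14.3 CPM and BrapcKO libraries 667 ± 380 CPM (SD, n = 5 each), so the SD was 10.2% of the mean in control and 56.9% in BrapcKO. The log2 difference, fitted beside the title code, was 2.05 (SE 0.42, adjusted p = 0.02 by edgeR), 4.15-fold with a 95% interval of 2.14 to 8.04. A two-sided exact permutation test of Gfap alone gave p = 0.00794 over all arrangements of 5 against 5 and p = 0.0167 over the 60 that keep the title codes, the smallest each can give.

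The Gfap call depended on the model. When the Y-linked score was added the log2 difference was 1.42 and the adjusted p 0.19, and with that score in place of the title code they were 1.78 and 0.13. Without control 08 or 09 the adjusted p was 0.095 and 0.096, with log2 differences of 1.94 and 1.82. Among libraries low in Y-linked reads, BrapcKO 04 stood at 329 CPM against 125 to 154 in 4 controls, and among those high in them, 4 BrapcKO libraries stood at 345 to 1228 against 151 in control 23. The difference was in the same direction on either side, with 1 library in an arm each time and so no usable test.

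Vim (ENSMUSG00000026728.9, chromosome 2, 13573927 to 13582826, plus strand), the vimentin gene, rose too. Vim levels were 28, 24.7, 31.5, 32.1 and 30.8 CPM in the controls and 72.8, 124, 172, 85.7 and 76 CPM in the BrapcKO libraries. The groups did not overlap, and the flox/flox Cre+ libraries were again the highest, although 06 lay above 05. Controls averaged 29.4 ± 3.04 CPM and BrapcKO libraries 106 ± 42.2 CPM (SD, n = 5 each). The log2 difference fitted beside the title code was 1.81 (SE 0.27, adjusted p = 0.0034 by edgeR). This was 3.5-fold, with a 95% interval of 2.32 to 5.28. Adding the Y-linked score gave a log2 difference of 1.47 (adjusted p 0.049). The exact permutation tests gave the same smallest values as for Gfap. The ratio of Gfap to Vim counts was 3.98 to 5.25 in control and 4.51 to 9.93 in BrapcKO, overlapping, with the highest in BrapcKO 05.

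Nes (ENSMUSG00000004891.16, chromosome 3, 87971078 to 87980451, plus strand), the nestin gene, was the least expressed of the 7. The controls read 18.9, 14.7, 13.4, 12.3 and 9.36 CPM and the BrapcKO libraries 13.5, 17.2, 23.4, 11.8 and 21 CPM. The groups overlapped. The log2 difference was 0.31 (95% interval -0.17 to 0.78, adjusted p = 0.46 by edgeR), so a change of up to 1.72-fold lay within the interval. Adding the Y-linked score gave 0.15 (adjusted p 0.89). Without BrapcKO 21 the difference was -0.031, and within the B1 libraries -0.026.

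Nefl encodes the light chain, on which the other neurofilament chains assemble. Nefl levels were 416, 484, 598, 651 and 641 CPM in the controls, against 289, 288, 273, 294 and 370.4 CPM with BrapcKO. Every BrapcKO library lay below every control, as for 3.71% of all genes, and within both groups the B2 libraries were the highest. Controls averaged 558 ± 104 CPM and BrapcKO libraries 303 ± 38.5 CPM (SD, n = 5 each). The log2 difference was -0.69 (SE 0.07, 95% interval -0.85 to -0.54, adjusted p = 0.00021 by edgeR), and it ranked 26 by p-value among all genes. Beside the title code the fitted fall was 38.2%. Without the title code the log2 difference was -0.88 (adjusted p 0.0054), and with the code plus Y-linked score -0.71 (adjusted p 0.006). The exact permutation tests gave p = 0.00794 and, within codes, p = 0.0167.

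Nefm, the medium chain, fell as well. Nefm levels were 119, 131, 176, 176 and 179 CPM in the controls, against 82.3, 104, 78.2, 76.7 and 121 CPM with BrapcKO. The groups overlapped only in that BrapcKO 21 lay just above control 08. Within each title code all BrapcKO libraries were lower, at 76.7 to 104 CPM against 119 to 131 in B1 and at 121 against 176 to 179 in B2. Means of 156 ± 28.7 and 92.5 ± 19.5 CPM (SD, n = 5 each) gave a log2 difference of -0.55 (SE 0.09, 95% interval -0.75 to -0.34, adjusted p = 0.0044 by edgeR). Expression fell by 31.7%. It was -0.57 (adjusted p 0.048) when the Y-linked score was added. With that score in place of the title code it was -0.87 (adjusted p 0.092).

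The title code itself went with the levels of these chains. B2 libraries were above B1 by 0.44 (SE 0.07) for Nefl and by 0.50 (SE 0.10) for Nefm on the log2 scale (adjusted p = 0.00075 and 0.0019 by edgeR). None of the other 5 members was called for the code (adjusted p 0.15 to 0.86), while 25.1% of all genes were. The ratio of Nefl to Nefm counts stayed between 3.4 and 3.71 in control and between 2.76 and 3.83 in BrapcKO.

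Nefh (ENSMUSG00000020396.8, chromosome 11, 4938754 to 4948064, minus strand), the heavy chain that carries the side arms spacing the filaments, did not fall. The controls read 91.1, 102, 78, 87.9 and 76.5 CPM and the BrapcKO libraries 102, 99.3, 141, 107 and 135 CPM. BrapcKO 04 and 05 lay below control 09 and the other 3 above all controls. Controls averaged 87.2 ± 10.5 CPM and BrapcKO libraries 117 ± 19.9 CPM (SD, n = 5 each). The log2 difference fitted beside the title code was 0.41 (SE 0.13, 95% interval 0.14 to 0.69, adjusted p = 0.068 by edgeR). DESeq2 called it (0.41, adjusted p 0.032). In edgeR it was 0.28 (adjusted p 0.49) when the Y-linked score was added. Without BrapcKO 21 it was 0.21 (adjusted p 0.52) and within the B1 libraries 0.22 (adjusted p 0.51).

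Ina, the fourth neuronal chain, was the steadiest of the 7. The controls read 148, 151, 117, 138 and 129 CPM and the BrapcKO libraries 143, 131, 132, 124 and 126 CPM. All BrapcKO values lay within the range of the controls. The log2 difference was -0.12 (95% interval -0.29 to 0.05, adjusted p = 0.4 by edgeR), and its interval excludes a fall as large as that fitted for Nefl. It was again -0.12 (adjusted p 0.66) when the Y-linked score was added.

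**Figure D2:**
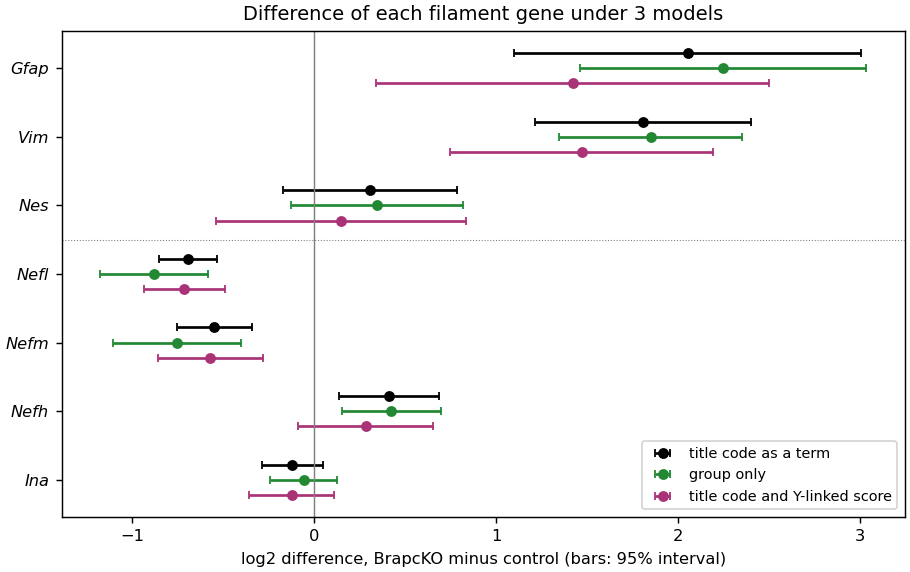
Log2 difference (BrapcKO minus control) of each filament gene with its 95% interval, from edgeR fits with the title code as a term, with group only, and with title code plus Y-linked score. Gfap and Vim lie to the right of 0 and Nefl and Nefm to the left in all 3 models; for Gfap, 1.42 with both terms has an interval of 0.34 to 2.50.

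Glial filament transcripts were more abundant relative to neuronal ones in every BrapcKO library than in any control. The mean log2 CPM of the 3 glial genes minus that of the 4 neuronal genes was -1.91, -2.31, -2.23, -2.31 and -2.37 in the controls. It was -0.99, -0.03, 0.10, -0.65 and -1.02 in the BrapcKO libraries. The groups did not overlap, and from the fitted values the glial mean difference exceeded the neuronal by 1.63 on the log2 scale. Adding the Y-linked score gave 1.29. The value is given without a test because the genes were chosen together. Most of it came from the glial side, whose mean log2 CPM was 5.15 to 5.42 in control and 6.10 to 7.24 in BrapcKO. The neuronal mean was 7.33 to 7.59 and 7.04 to 7.38, so its ranges overlapped slightly. The summed CPM of the 4 neuronal genes did not overlap, at 774 to 1053 in control and 602 to 752 in BrapcKO.

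Ratios within a library do not depend on its scaling. Gfap counts were 0.21 to 0.354 times those of Nefl in control and 0.931 to 4.26 times in BrapcKO. Nefh counts were 11.9% to 21.9% of those of Nefl in control and 34.4% to 51.8% in BrapcKO, and the groups did not overlap. The 3 glial genes made up 14.9% to 20% of the counts of all 7 in control and 37% to 68.7% in BrapcKO. These ratios were chosen after their values were seen and are given as a description.

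**Figure D3:**
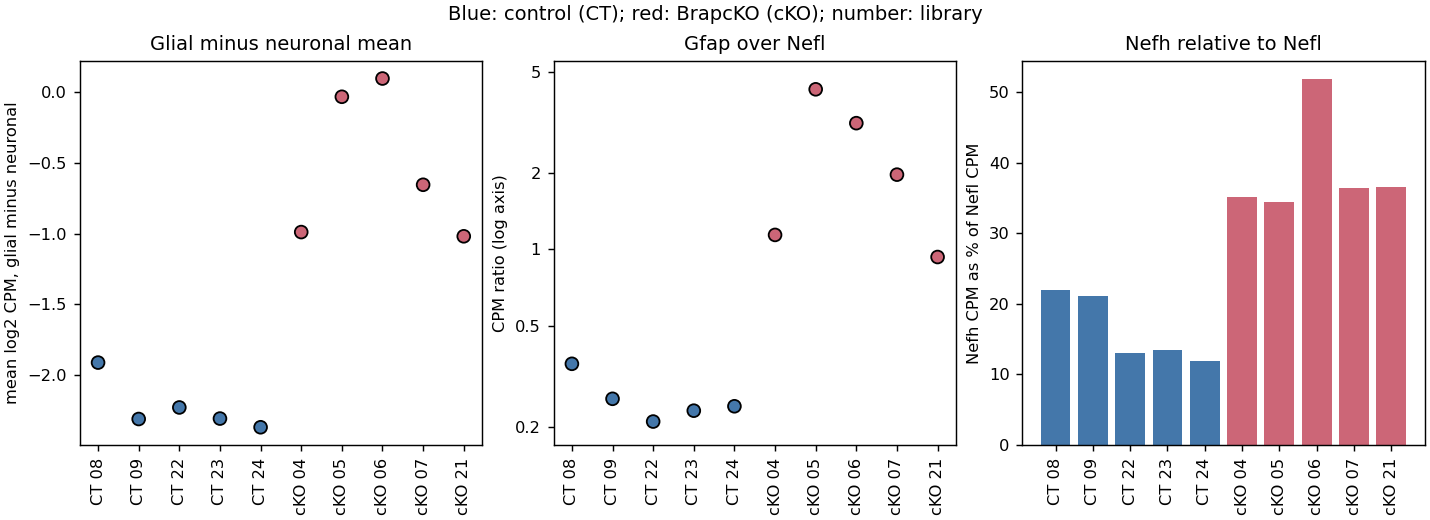
For each of the 10 libraries, the glial minus neuronal mean log2 CPM, the ratio of Gfap to Nefl CPM (log axis), and Nefh CPM as a percentage of Nefl CPM (bars from 0). In each panel all 5 BrapcKO libraries lie above all 5 controls, with BrapcKO 05 and 06 farthest from the controls in the first 2 panels and BrapcKO 06 in the third.

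Levels between genes were compared as CPM per kilobase of exon. In control Nefl led at 165 ± 30.6, followed by Ina at 42.1 ± 4.36, Gfap at 33.3 ± 3.39, Nefm at 27 ± 4.97, Nefh at 21.8 ± 2.64, Vim at 6.21 ± 0.642 and Nes at 2.14 ± 0.544 (SD, n = 5). The ranges of Ina and Gfap, of Gfap and Nefm, and of Nefm and Nefh overlapped, and the other neighbours in this order did not. In BrapcKO the order was Gfap at 158 ± 90, Nefl at 89.6 ± 11.4, Ina at 40.5 ± 2.28, Nefh at 29.3 ± 4.99, Vim at 22.4 ± 8.9, Nefm at 16 ± 3.37 and Nes at 2.71 ± 0.761. There Gfap and Nefl, Nefh and Vim, and Vim and Nefm overlapped. Exons shared between Nefl and Nefm count in both lengths, so their levels per kilobase are less certain.

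The labels allow the comparison to be made within genotype pairs. In flox/flox Cre+ libraries against flox/flox Cre- ones (2 each) Gfap differed by 2.85 (95% interval 2.15 to 3.55), Vim by 2.48 and Nefl by -0.77 on the log2 scale (adjusted p = 0.0079, 0.00054 and 0.018 by edgeR), while Nefm differed by -0.47 (adjusted p 0.15). In flox/ko Cre+ libraries against flox/wt Cre- ones (3 each) Gfap differed by 1.53 (95% interval 1.00 to 2.06), Vim by 1.40, Nefl by -0.64 and Nefm by -0.57 (adjusted p = 0.0092, 0.0011, 0.0042 and 0.019 by edgeR). The first comparison called 0.736% of all genes (0.336% higher, 0.399% lower) and 3 of the 7 members. The second called 4.84% (1.77% higher, 3.08% lower) and 4 of the 7. Gfap and Vim differed more in the first pair, by 1.32 (95% interval 0.52 to 2.11) and 1.08 (0.61 to 1.55), but this difference between the pairs did not pass (adjusted p = 0.64 and 0.37 by edgeR). No gene of the table passed for it, 0% called. By edgeR 873 genes, 6.12% of all, among them 2 of the 7 members, had an unadjusted p under 0.05. Nefl and Nefm differed between the pairs by -0.12 (95% interval -0.43 to 0.18) and 0.10 (-0.28 to 0.48). In the flox/flox pair both Cre+ libraries (05 and 06) were high in Y-linked reads and both Cre- libraries (09 and 24) low, so Cre and whatever goes with Y-linked reads cannot be told apart there, for Gfap and Vim as for the rest. In the other pair 2 of 3 flox/ko Cre+ and 1 of 3 flox/wt Cre- libraries were high in them. The Y-linked score was not a term in these fits.

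**Figure D4:**
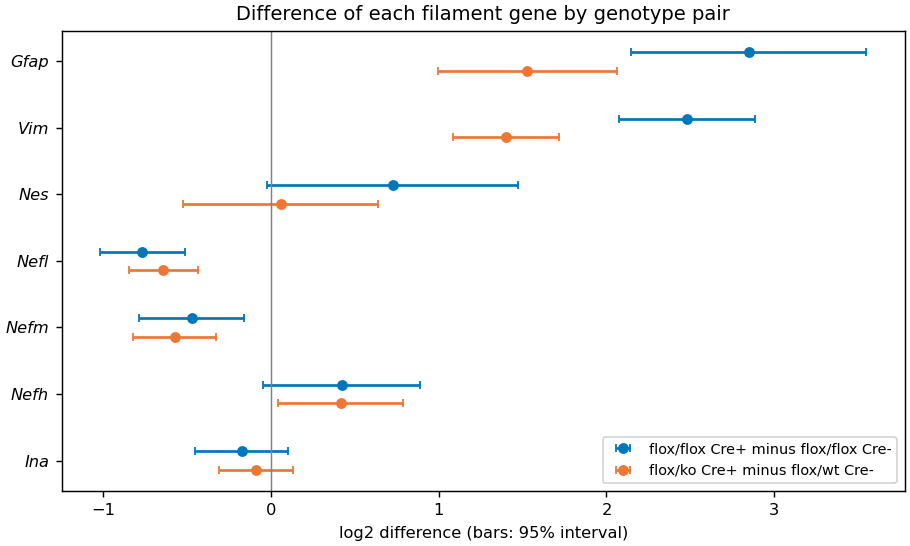
Log2 difference of each filament gene with its 95% interval, for flox/flox Cre+ minus flox/flox Cre- (2 libraries each) and flox/ko Cre+ minus flox/wt Cre- (3 each), from an edgeR fit of 4 genotypes with the title code as a term. Gfap is at 2.85 and 1.53 and Vim at 2.48 and 1.40, while the values of Nefl, Nefm, Nefh and Ina lie close together.

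In 6 related groups of the filament system 10 of 119 measured genes were called, 8.4%, close to the 8.07% over all genes. With group as the only term 3 were called (Synm, Evpl and Osmr), and with the title code plus Y-linked score 2 (Pak1 and Stmn1). Of 19 measured genes for other intermediate filament proteins 0 rose and 2 fell, with a median of 0.13. Synm, synemin, a partner of vimentin and GFAP in mixed filaments, went against its partners: it fell from 96.8 ± 7.68 to 67.7 ± 9.41 CPM, -0.44 on the log2 scale (adjusted p = 0.0096 by edgeR), with no overlap of the groups. Adding the Y-linked score gave -0.39 (adjusted p 0.15). The keratin Krt80 fell by 1.32 on the log2 scale from a low level of 3.06 CPM (adjusted p = 0.032 by edgeR), and was not called without the title code (adjusted p 0.13) or with the Y-linked score added (0.21). The lamin Lmna and peripherin, Prph, a filament protein of peripheral neurons, differed by 0.21 and -0.92 (adjusted p = 0.23 and 0.084 by edgeR).

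Of 8 linkers that tie filaments to other structures 1 rose and 0 fell, with a median of -0.10. Evpl, envoplakin, rose from 5.2 ± 0.374 to 8.6 ± 0.865 CPM (0.70, adjusted p = 0.0055 by edgeR). Plec, plectin, and Dst, dystonin, differed by -0.13 and -0.15 (adjusted p 0.58 and 0.27).

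Among 28 kinases and phosphatases known to act on filament proteins, 0 rose and 4 fell, with a median of -0.0031. Mapk10, the neuronal JNK kinase, Camk2a, a calcium-activated kinase of excitatory neurons, Pak1 and Prkca changed by -0.31, -0.56, -0.40 and -0.42 (adjusted p = 0.013, 0.018, 0.018 and 0.039 by edgeR). None of the 4 was called without the title code (adjusted p 0.056 to 0.41). Of 14 motor proteins 1 fell: Kif5a, a kinesin that carries neurofilaments along axons, changed by -0.25 (adjusted p 0.049). Of 24 partners in the axonal cytoskeleton 1 fell: Stmn1, a tubulin-binding protein, changed by -0.66 (adjusted p 0.0055). Kif5a and Stmn1 were not called without the title code (adjusted p 0.18 and 0.22). The medians of these groups were 0.04 and -0.05.

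Of 26 regulators known to act on filament genes 1 rose and 0 fell, with a median of -0.08. Osmr, a receptor subunit for oncostatin M that signals to STAT3, rose from 4.81 ± 1.26 to 12.4 ± 3.91 CPM (1.13, adjusted p = 0.0028 by edgeR). Adding the Y-linked score gave 0.99 (adjusted p 0.06). Stat3 itself, a transcription factor known to act on Gfap, differed by 0.25, and Socs3, its inhibitor, by -0.0034 (adjusted p 0.089 and 0.996). Pak1 and Stmn1 had adjusted p-values of 0.045 and 0.039 when the Y-linked score was added.

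**Figure D5:**
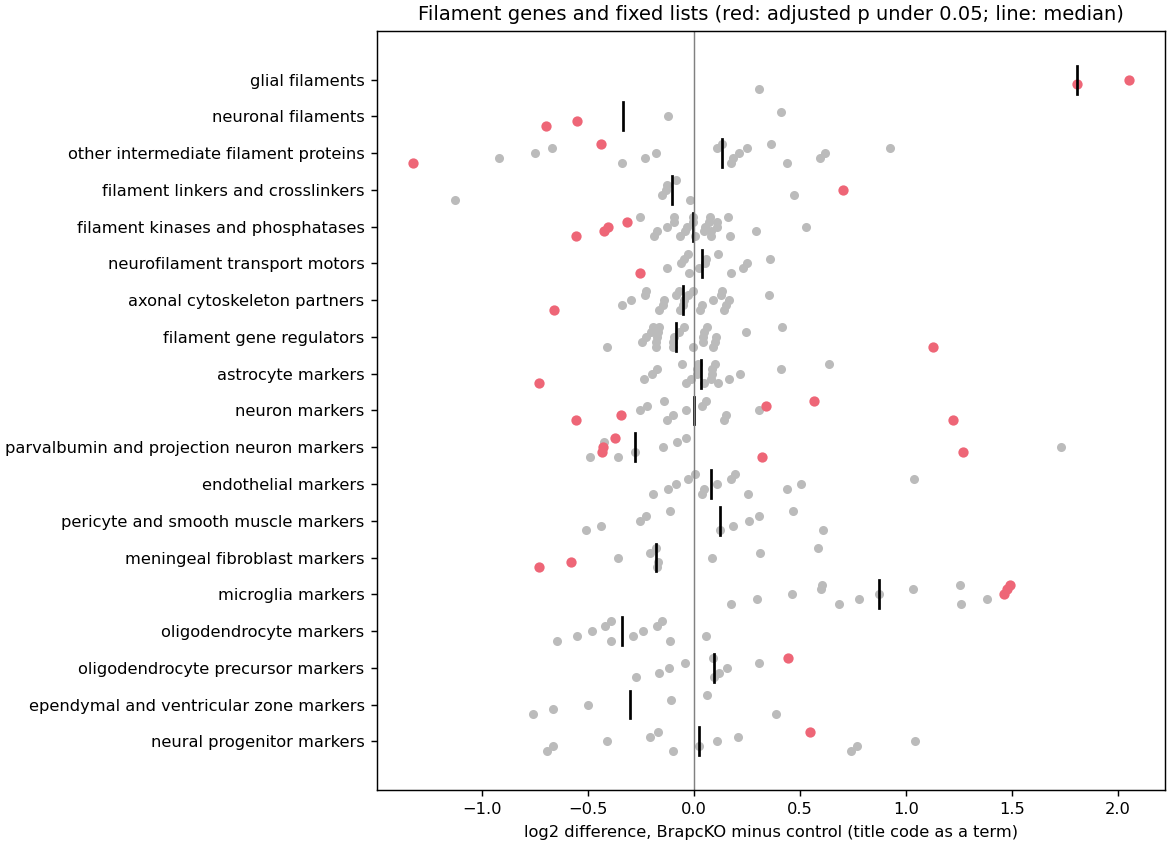
Log2 difference (BrapcKO minus control, title code as a term) of every measured gene of the filament groups, 6 related groups and 11 cell type marker lists; red points had an adjusted p under 0.05 and black lines are medians. The glial filaments, median 1.81, and the microglia markers, median 0.87, stand to the right, while most related groups centre near 0.

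Markers of the cells that could carry these transcripts were read beside them. Of 20 general astrocyte markers 0 rose and 1 fell, with a median of 0.03. It was Ranbp3l (-0.73, adjusted p = 0.031 by edgeR, and 0.21 without the title code). With the Y-linked score added Ranbp3l changed by -1.05 and was still called (adjusted p 0.029). The summed level of the 20 overlapped, at 7955 to 9833 CPM in control and 7227 to 10477 in BrapcKO. Of 15 microglia markers, cells that can also make vimentin, 3 rose and 0 fell, with a median of 0.87. The 3 were C1qa, C1qb and C1qc, subunits of the first complement component, at 1.48, 1.46 and 1.49 (adjusted p = 0.025, 0.041 and 0.048 by edgeR). The summed microglia markers did not overlap, at 402 to 432 CPM in control and 586 to 1671 in BrapcKO, and their part in the Vim and Gfap differences was not tested. When the Y-linked score was added 0 of the 15 were called. Of 14 endothelial and 11 pericyte and smooth muscle markers 0 were called, with medians of 0.08 and 0.12, and their sums overlapped (245 to 395 against 338 to 607 CPM, and 190 to 314 against 255 to 351). Of 10 meningeal fibroblast markers 2 fell and 0 rose, with 0 called when the title code was dropped or the Y-linked score added. Of 13 neural progenitor markers, cells that make nestin, 1 rose, the transcription factor Sox11 (0.55, adjusted p 0.0063). Of 10 oligodendrocyte precursor markers 1 rose, and of 12 oligodendrocyte and 6 ependymal markers 0 were called.

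For the neuronal genes, 3 of 16 neuron markers rose and 2 fell, with a median of 0.0031 and overlapping sums of 12564 to 13898 and 12523 to 13715 CPM. Gad2 and Gad1, the enzymes that make GABA, rose by 1.23 and 0.57, and Syt1, the calcium sensor of transmitter release, changed by -0.34 (adjusted p = 0.0003, 0.0077 and 0.0063 by edgeR). When the Y-linked score was added Gad2 alone of the 16 was called (adjusted p 0.011), with Gad1 and Syt1 at 0.071 and 0.089. Of 13 markers of parvalbumin neurons and large projection neurons, which are rich in neurofilaments, 2 rose and 3 fell, with a median of -0.27. Tac1, a neuropeptide precursor, rose by 1.27, and Kcnc2, a potassium channel of fast-spiking neurons, changed by -0.37 (adjusted p 0.0058 and 0.012). Neither was called without the title code (adjusted p 0.056 and 0.17) or with the Y-linked score added (0.088 and 0.13). Of these 13 markers 0 rose and 1 fell with group as the only term, and 0 were called with the Y-linked score added. The part of such cells in the Nefl and Nefm differences was not tested. No measured marker of any of these lists had a count of 0 in any library.

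For each member the 3 genes of most similar pattern were taken, by the root mean square distance over the 10 libraries between log2 levels relative to the control mean. For Gfap they were Capg, an actin-capping protein, Vim and Gpnmb, a membrane glycoprotein, at distances of 0.324, 0.385 and 0.403. For Vim they were Serpina3n, a secreted protease inhibitor, Gpnmb and Gfap, at 0.326, 0.376 and 0.385. For Nefl they were Dact1, Wnt7a and Nefm, at 0.12, 0.135 and 0.146. For Nefm they were Spag6, Dact1 and Nefl, at 0.0867, 0.143 and 0.146. These distances share the libraries and their scaling and carry no test.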

How the data were processed

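The authors deposited raw counts of reads for each gene in each library. The tools named, per the submitters' processing notes, are Subread, featureCounts, FastQC, edgeR and DESeq2, and the builds GRCm38 and mm10. Versions, settings and strand assignment are not given. Every gene had at least 0.582 CPM in at least 5 libraries. Of 14276 identifiers 14271 matched GENCODE M21 (GRCm38), which gave symbols, coordinates and exonic lengths.

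Counts were tested with edgeR 4.0.16 (R 4.3.3; TMM, robust quasi-likelihood fit, group and title code as terms), with p-values adjusted by Benjamini and Hochberg over all genes; the edgeR low-count filter removed 0 genes. SE is the log2 difference over the square root of F. Single members were also tested by exact permutation of log2 CPM (prior count 0.5). Over all arrangements this permutation test gave unadjusted p of 0.016 for Nefm, 0.024 for Nefh, 0.22 for Nes and 0.51 for Ina. Within title codes it gave 0.017, 0.05, 0.4 and 0.12 in the same order. The fit was tested on simulated data. Alternatives included DESeq2 1.42.0, limma 3.58.1 (voom), other scalings, filters and terms, single title codes and leaving out each library. Libraries of a group differed beyond sampling noise (7.15 to 96.3 times the chi-square that counting error gives). None was therefore treated as a second sequencing of another, but this cannot show that the libraries came from separate mice.

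The members and lists were chosen with earlier results of these data known. Named genes are the members, up to 4 called genes with the smallest p per related group and up to 3 per marker list plus its 2 most abundant, and the 3 nearest profiles; some of these are not given. Lmna, Prph, Plec, Dst, Stat3 and Socs3 were named outside that rule, after their values were seen.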

Additional observations from a re-analysis of the deposited data

Results flagged for a closer look

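Nefl in BrapcKO 21 stood at 370.4 CPM, apart from the other 4 BrapcKO libraries, of which the next was at 294. Its gap was 0.785 of the range of the group, above the critical value of 0.71 for 5 samples. BrapcKO 21 was the only B2 library of its group, and the 3 B2 controls were also the highest controls for Nefl. It still lay below every control. Chance alone gives such a gap in about 1 in 20 groups, and 14 groups of values were examined.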

How the results depend on the processing

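All 4 called members kept their direction under every alternative run. Vim was called under all 26. Against 1152 genes called, the count was 617 with group only, 320 with the title code and Y-linked score, 94 with the Y-linked score alone, 416 in B1 only, 57 in B2 only and 2039 with limma-voom quality weights. Leaving out 1 library gave 406 to 1454. Glial calls were 1 with either Y-linked model and in B1 only, and 1 to 2 when 1 library was left out. Neuronal calls were 1 with the Y-linked score alone and in B1 only, 0 in B2 only, and 2 to 3 when 1 library was left out. The glial minus neuronal difference was 1.29 with both terms and 1.28 in B2 only. Gfap was not called with both terms (1.42), with the Y-linked score alone (1.78) or in B1 only (2.45, adjusted p 0.11), and ran from 1.81 to 2.45 when 1 library was left out. Nefl was not called in B2 only (-0.78, adjusted p 0.12). Nefm was not called with the Y-linked score alone (-0.87), in B1 only (-0.55, adjusted p 0.051) or in B2 only (-0.56). Nefh was called with library size only (0.44), DESeq2 (0.41) and the likelihood-ratio test of edgeR (0.41), and ran from 0.21 to 0.52 when 1 library was left out, with a call without BrapcKO 05 (0.47, adjusted p 0.038). Nes reversed in B1 only (-0.026) and without BrapcKO 21 (-0.031), the lowest of its values with 1 library left out (highest 0.51). In the flox/ko Cre+ against flox/wt Cre- comparison 2 members were called without the title code, and 2 to 4 when 1 library was left out. B1 only held 2 controls and B2 only 1 BrapcKO library, which is assumed to vary like the controls; otherwise the cause was not tested. No paired analysis was possible because the groups share no library number. Depth limits Nes most, at 241 to 594 counts per library.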
